A study of Mus musculus with 11 samples.

Results

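The genes described here build, fill or line the cytotoxic granule of natural killer (NK) cells, and were taken by name for those roles. They are the granzymes Gzma, Gzmb, Gzmc, Gzmk and Gzmm, the pore former Prf1, the granule proteoglycan Srgn, the granzyme-activating protease Ctsc and the granule membrane genes Lamp1 and Nkg7. They make up 10 of the 24421 genes in the deposited count table. All 10 had enough counts to be among the 13711 genes that were tested.

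RNA was sequenced from splenic NK cells that carry Ly49H, an activating receptor for a protein of mouse cytomegalovirus (MCMV). The cells came from mixed bone marrow chimeras of the C57BL/6 strain, with MCMV infection in vivo given as the treatment of every sample. By the labels the wild-type cells (WT) are CD45.1 and those deficient in LDHA (KO) are CD45.2, so that genotype and this allele cannot be told apart, and the labels name no Cre line and no deleted exon. By title, the 11 libraries are WT D0 (2 libraries), WT D2 (3), KO D0 (3) and KO D2 (3), each from an individual mouse according to the labels. Whether KO and WT libraries with the same number came from the same chimera is not given there. The label for days after infection reads Day 2 in all 11, so D0 and D2 are the titles' terms here, and whether the D0 mice were infected cannot be settled from the labels. Libraries titled WT have a genotype label that gives both genotypes, and they were grouped by title. Age and sex of the mice are not used here.

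NK cells store granzymes, which are serine proteases, and perforin in secretory lysosomes. On contact with a target the granules fuse with the plasma membrane, perforin opens the target's membrane, and granzymes enter and cleave proteins there. Ctsc encodes dipeptidyl peptidase 1, which trims granzymes into their active form, and serglycin, the product of Srgn, holds them in the granule core. Lamp1 covers the inside of the granule membrane and appears on the cell surface after release, and Nkg7 is a granule membrane protein needed for efficient killing. In mice, resting NK cells are known to hold Gzmb and Prf1 transcripts with little of the proteins, which accumulate on activation, and the files hold RNA only.

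Library totals ran from 19452460 to 27992092 counts. Levels are given as CPM, a gene's counts relative to its library's total, after TMM scaling, which corrects the totals for composition, and 3 counts, the floor used here, correspond to 0.107 to 0.154 CPM without that scaling. Ldha stood at 91.1 to 115 CPM in the 6 KO libraries and 563 to 3100 CPM in the 5 WT libraries, on the side the title gives in all 11. The genes behind the sort were present in every library, with Ncr1 at 640 to 1595 CPM, Klrb1c (NK1.1) at 391 to 1680, Itga2 (DX5) at 112 to 239 and Klra8 (Ly49H) at 399 to 1286. Cd3e reached at most 0.995 CPM, while Cd3d ran from 7.2 to 17.7 and Cd3g from 3.66 to 11.6 CPM. The summed level of 8 T cell markers was 14.4 to 24 CPM in KO D0 and 16.2 to 22.9 in WT D0. At D2 it was 15.8 to 21.2 in KO and 15.1 to 31.8 in WT. The summed level of 8 NK markers was 5257 to 6764 CPM in KO D0 and 7321 to 7658 in WT D0, against 3928 to 4240 in KO D2 and 4538 to 4842 in WT D2. The summed level of 8 macrophage and monocyte markers was 26.1 to 51.7 CPM in KO D0 and 51.3 to 70.3 in WT D0, against 17 to 23.4 and 19.2 to 27.9 at D2. Markers of red cells summed to 77.6 to 703 CPM in KO D0 and 151 to 643 in WT D0, against 49.3 to 159 and 27.6 to 245 at D2. The NK list holds Tbx21 and Eomes, which are also among the transcription factors below. The NK sum and the macrophage and monocyte sum were lower at D2 in both genotypes, while the red cell and T cell sums overlapped between the days. The NK sum was also lower in every KO library than in every WT library of the same day. The part of these sums in the comparisons of days or of genotypes was not tested. In bulk RNA, fewer cells of a type and less RNA per cell cannot be told apart.

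The first comparison asks how granule transcripts differ between D2 and D0 in each genotype. In WT cells Gzmb, Gzmc, Prf1, Srgn and Gzma rose and Gzmm fell. In KO cells the same 5 rose, Nkg7 rose as well, and Gzmm and Lamp1 fell. These are edgeR calls at an adjusted p under 0.05, with p adjusted over all genes tested. Thus 5 of 10 were higher and 1 lower in WT, where 27.5% of all tested genes were called higher and 26% lower. In KO 6 were higher and 2 lower, beside 27% and 34.5% of all genes. The median log2 fold change of the 10 was 0.43 in WT and 0.65 in KO, against -0.07 and -0.20 over all tested genes. The libraries of the compared groups did not overlap for 8 of the 10 in WT (68.5% of all tested genes) and for all 10 in KO (67%). In either direction 53.5% of all tested genes were called in WT and 61.4% in KO, so the shares of granule genes called lie near the background. The count that fell in WT became 2 with the replicate number as 1 block over both days, beside 27.5% of all genes, and 4 with scaling by library totals alone, beside 41.7%. The log2 fold change of Gzmb exceeded that of 99.5% of the tested genes in WT and 99.6% in KO, and that of Gzmc 99% and 99.1%.

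**Figure D1:**
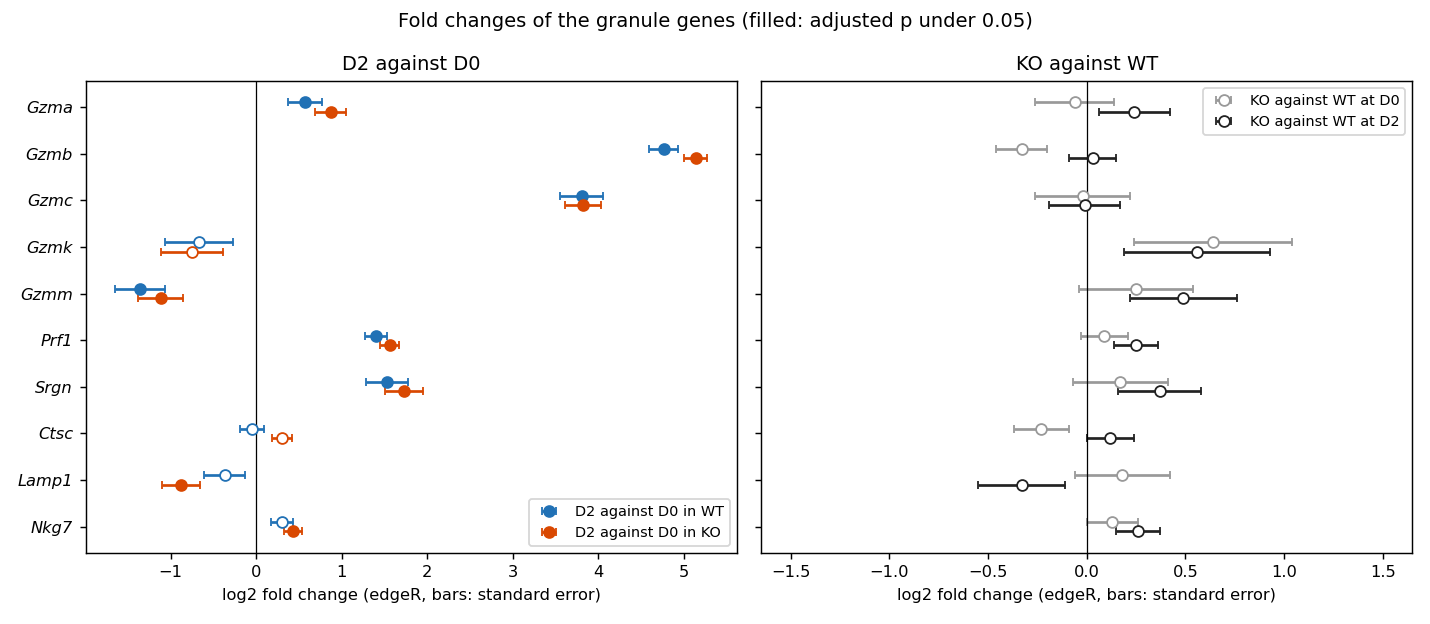
Log2 fold changes of the 10 granule genes (edgeR, bars show the standard error), D2 against D0 on the left and KO against WT on the right, with filled points for an adjusted p under 0.05. Gzmb and Gzmc lie far to the right between the days in both genotypes, and no point is filled between the genotypes.

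Gzmb encodes the granzyme that cleaves caspases and their substrates in target cells. In WT D0 it stood at 1074 and 1220 CPM, and in WT D2 at 34862, 29620 and 29256 CPM. In KO D0 it stood at 843, 993 and 895 CPM, and in KO D2 at 35713, 31862 and 28431 CPM. Every D2 library lay far above every D0 library, whatever the genotype. The rise was 27.2-fold in WT (log2 fold change 4.77, SE 0.17, edgeR adjusted p = 1.6e-09) and 35.2-fold in KO (5.14, SE 0.14, adjusted p = 1.2e-10). In WT 72 tested genes had a larger log2 fold change, and in KO 55. Gzmb took up 0.0996% to 0.138% of all counts in the D0 libraries and 2.55% to 3.19% in the D2 libraries. Per transcript length, and with the same total over 21269 genes in each library, it ranked first of them in all 6 D2 libraries, and between 35 and 69 in the D0 libraries.

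Gzmc, its neighbour on chromosome 14, is a granzyme of activated killer lymphocytes that is scarce in resting ones. It stood at 1.74 and 1.58 CPM in WT D0 and at 23.1, 25.7 and 21.4 CPM in WT D2. In KO D0 it stood at 1.31, 1.95 and 1.66 CPM, and in KO D2 at 24.6, 26.5 and 18.7 CPM. Per length it ranked between 8731 and 9307 of the 21269 genes in the D0 libraries and between 2538 and 3291 in the D2 libraries. The log2 fold change was 3.81 in WT (SE 0.25, edgeR adjusted p = 1e-07) and 3.82 in KO (SE 0.21, adjusted p = 2.4e-08), or 14 and 14.1-fold. Of the 31-base words in the Gzmc transcript 14.8% also occur in other genes, most of them in Gzme (8.22%), against 1.35% for Gzmb, so some Gzmc reads cannot be told apart from those of its neighbours.

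The promoters of Gzmb and Gzmc are printed because these genes had the largest rises of the 10, and that of Prf1 because it encodes the pore former and rose in both genotypes. Each run is the 250 bases before the RefSeq start site (GRCm38.p6), 5′ to 3′ on the gene's strand. Capitals mark matches, on either strand, to AP-1 (TGANTCA), CRE (GACGTCA), RUNX (TGTGGT), T-box (AGGTGTGA), STAT (TTCNNNGAA) and ETS (AGGAAG) letters.
Gzmb, chr14:56262335-56262584, minus strand: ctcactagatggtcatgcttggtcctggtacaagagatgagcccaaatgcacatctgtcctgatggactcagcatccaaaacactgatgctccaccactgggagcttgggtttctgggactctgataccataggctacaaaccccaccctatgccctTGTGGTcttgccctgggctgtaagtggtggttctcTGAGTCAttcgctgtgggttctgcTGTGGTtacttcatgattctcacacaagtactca
Gzmc, chr14:56234658-56234907, minus strand: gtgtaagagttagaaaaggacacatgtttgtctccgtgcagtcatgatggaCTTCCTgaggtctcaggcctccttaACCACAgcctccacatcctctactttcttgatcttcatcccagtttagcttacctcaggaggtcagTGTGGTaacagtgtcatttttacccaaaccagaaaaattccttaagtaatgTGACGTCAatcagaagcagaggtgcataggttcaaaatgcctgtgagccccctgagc
Prf1, chr10:61297586-61297835, plus strand: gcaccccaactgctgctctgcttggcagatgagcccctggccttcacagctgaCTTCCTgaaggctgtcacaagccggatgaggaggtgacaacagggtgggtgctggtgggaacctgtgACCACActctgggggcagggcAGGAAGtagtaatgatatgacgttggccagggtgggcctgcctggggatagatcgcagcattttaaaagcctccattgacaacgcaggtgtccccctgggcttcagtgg
The Gzmb window holds 1 AP-1 match 58 bases before the start and 2 RUNX matches at 34 and 93 bases before it. The Gzmc window holds a stretch at 57 and 56 bases before the start that matches CRE on both strands, with 2 RUNX matches and 1 ETS match. The Prf1 window holds 1 RUNX match and 2 ETS matches, and its start site lies inside the gene as annotated. The Gzmc window lies wholly inside Gzmc as the RefSeq annotation bounds it, downstream of its outermost start. Over all 32851 promoter windows of that length, 6.75% hold AP-1 letters, 2.78% CRE, 14% RUNX, 1.12% T-box, 7.02% STAT and 29.5% ETS. Promoters were found for all 10 genes. RUNX letters were in a window of 8 of them, all but Gzmk and Ctsc, and AP-1 letters were in that of Gzmb alone. A match describes letters only.

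Gzma, which encodes a tryptase, was already abundant at D0. It stood at 4528 and 3726 CPM in WT D0 and at 6887, 5551 and 5922 CPM in WT D2. In KO D0 it stood at 4874, 4002 and 2963 CPM, and in KO D2 at 8522, 7021 and 6170 CPM. All D2 libraries lay above all D0 libraries. The rise was 1.83-fold in KO (log2 fold change 0.87, SE 0.18, edgeR adjusted p = 0.00092) and 1.48-fold in WT (0.57, SE 0.20, adjusted p = 0.031). The WT call ended without any 1 of 7 libraries (adjusted p from 0.052 to 0.25), namely KO D0 replicate 2, KO D2 replicates 2 and 3, WT D0 replicates 2 and 3, and WT D2 replicates 1 and 3. Scaled by library totals alone, a choice made after seeing the data, Gzma differed by 0.13 in WT (adjusted p = 0.61), while the median of all genes moved to -0.50 in WT and -0.56 in KO.

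The balance of the 2 abundant granzymes turned over between the days. Per transcript length, Gzma made up 81.2% to 88.9% of the summed level of the 5 granzymes in the D0 libraries, and Gzmb 74.3% to 78.6% in the D2 libraries. The ratio of Gzmb to Gzma per length was 0.12 to 0.227 at D0 and 2.91 to 3.7 at D2. Gzmc, Gzmk and Gzmm each stayed at or under 0.456% of the summed level in every library. The ratio is taken within a library and does not depend on how libraries are scaled.

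**Figure D2:**
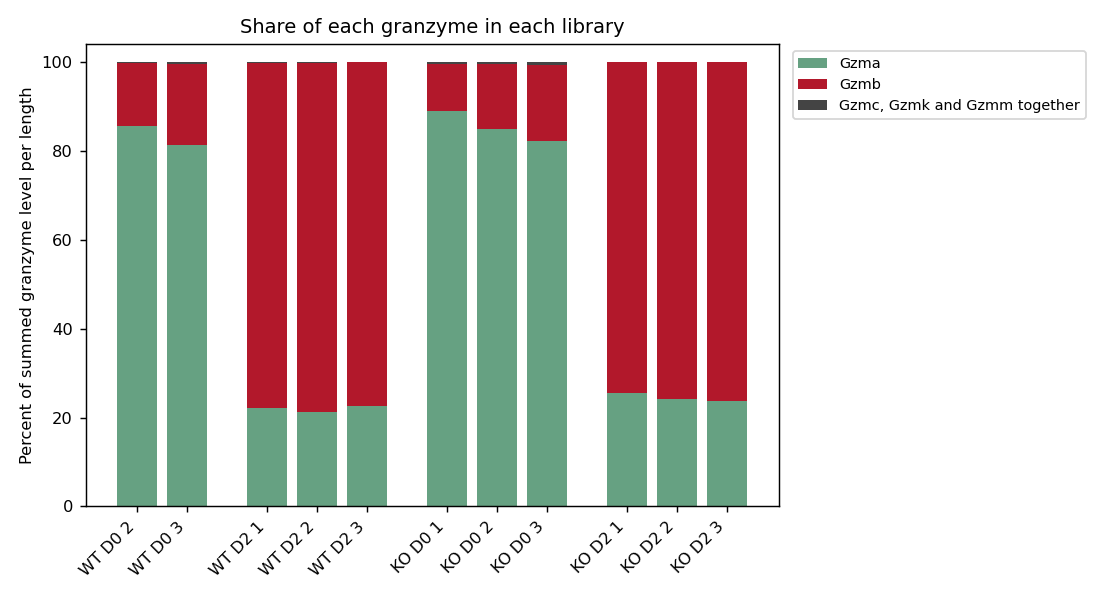
Share of each granzyme in the summed level of the 5 granzymes per transcript length (percent), 1 bar per library. Gzma fills most of each D0 bar and Gzmb most of each D2 bar, and the other 3 together are barely visible.

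Gzmm and Gzmk, 2 granzymes of lower level, did not follow Gzmb. Gzmm, which encodes a protease that cuts after methionine, stood at 15.8 and 15.4 CPM in WT D0 and at 3.73, 5.84 and 8.61 CPM in WT D2. In KO D0 it stood at 17.4, 17.1 and 21.2 CPM, and in KO D2 at 6.34, 9.29 and 9.99 CPM. Gzmm fell in both genotypes, with log2 fold changes of -1.36 in WT (SE 0.29, edgeR adjusted p = 0.0015) and -1.12 in KO (SE 0.26, adjusted p = 0.0025).

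Gzmk, a tryptase that lies 70.6 kb from Gzma on chromosome 13, stood at 5.82 and 5.44 CPM in WT D0 and at 6.12, 2.76 and 1.82 CPM in WT D2. KO D0 libraries were at 9.36, 9.28 and 7.67 CPM, and KO D2 libraries at 7.26, 4.26 and 4.16 CPM. WT D2 replicate 1 lay above both WT D0 libraries, and the other two lay below. The log2 fold change was -0.67 in WT (SE 0.40, edgeR adjusted p = 0.19) and -0.75 in KO (SE 0.36, adjusted p = 0.09), and neither passed. Without WT D2 replicate 1 Gzmk passed in both, at -1.35 in WT (adjusted p = 0.0039) and -0.80 in KO (adjusted p = 0.015). Gzmk overlaps Esm1 on the opposite strand, and whether the counting used strand is not given in the sources used here. By the same count of shared words as for Gzmc, 0 of the 1274 words in the Gzmk transcript also occur in other genes. The part of Esm1 reads in the Gzmk counts was not tested.

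**Figure D3:**
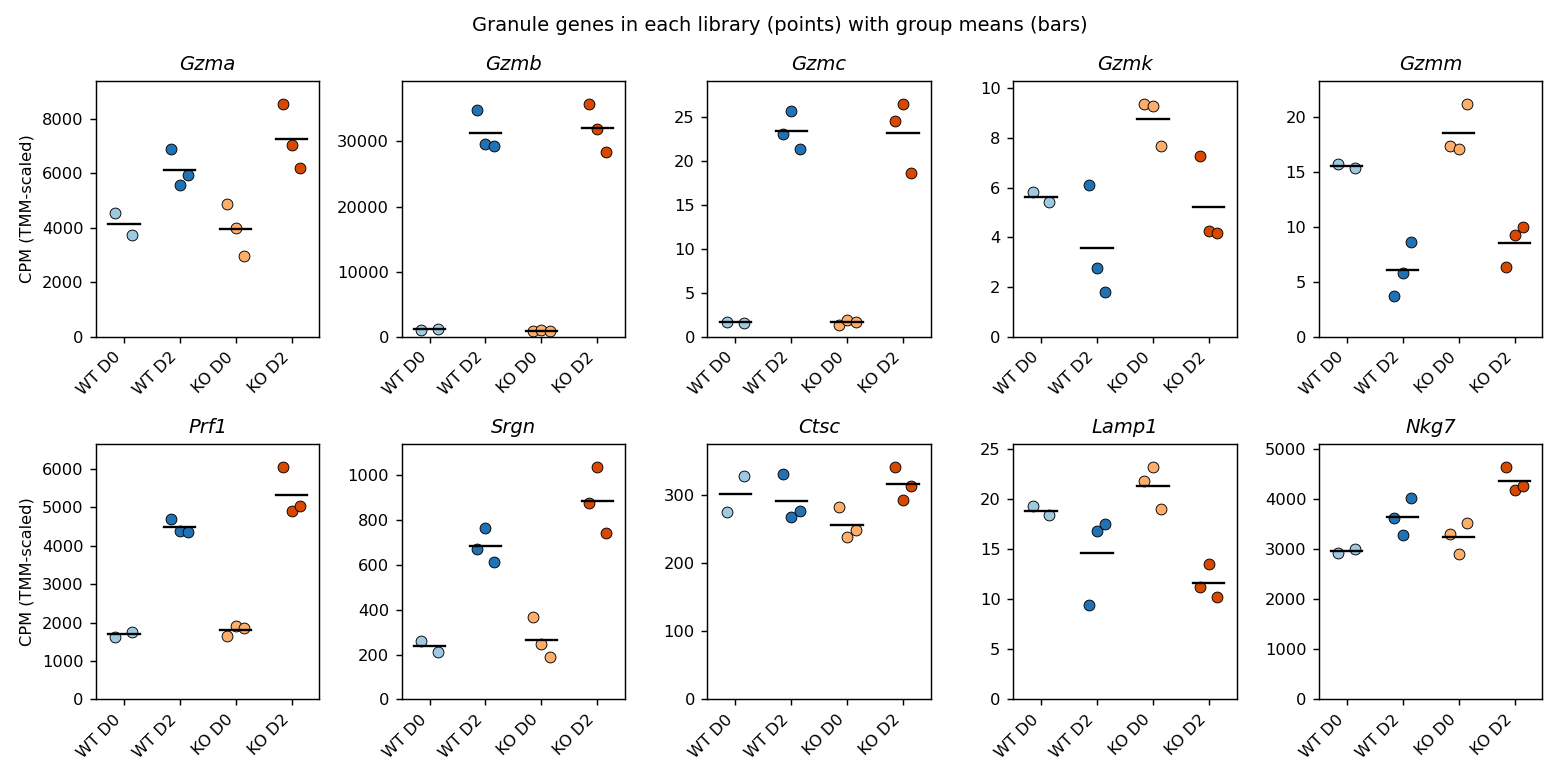
Level of the 10 granule genes in each library (CPM with TMM scaling, linear axes from 0, points for libraries and bars for group means, 2 libraries in WT D0 and 3 in each other group). The D2 points of Gzmb, Gzmc, Prf1 and Srgn lie above the D0 points in both genotypes, and those of Gzmm below.

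Gzmb and Gzmc stand at one end of a cluster of granzyme and chymase genes on chromosome 14 (mm10), 17.2 kb apart. Of the 18 annotated genes from Cma1 to Gzmb, 3 were counted often enough to be tested, namely Gzmb, Gzmc and Cma1. The other 15 reached at most 12 counts in any library, and 6 were at 0 in all 11. Among them are the 5 other granzymes, Gzmd, Gzme, Gzmf, Gzmg and Gzmn, none of which could be tested. Gzme reached 0.448 CPM and Gzmf 0.181 CPM in their highest libraries, both in WT D2. The gene next to Gzmc, Gzmf, lies 20 kb from it.

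Cma1, at the far end of the cluster, 314 kb from Gzmb, went the other way and is described because of its value. It encodes a chymase best known from mast cells. It stood at 305 and 282 CPM in WT D0 and at 45.7, 34.8 and 35 CPM in WT D2, and at 304, 304 and 300 CPM in KO D0 against 86, 54 and 45 CPM in KO D2. The log2 fold change was -2.93 in WT (SE 0.22, edgeR adjusted p = 3.3e-07) and -2.30 in KO (SE 0.21, adjusted p = 9.3e-07). At D2 Cma1 was called higher in KO than in WT (0.68, SE 0.20, edgeR adjusted p = 0.034), with ranges that overlapped, beside 1.61% of all tested genes. The difference of its change between genotypes was not called (0.63, SE 0.29, edgeR adjusted p = 0.29). Of 9 mast cell and basophil markers Cma1 is one, Mcpt1, Mcpt2, Mcpt4 and Tpsb2 were at 0 in every library, and Cpa3 reached at most 0.824 CPM. The 8 markers other than Cma1 summed to 0.924 to 2.99 CPM over all libraries.

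**Figure D4:**
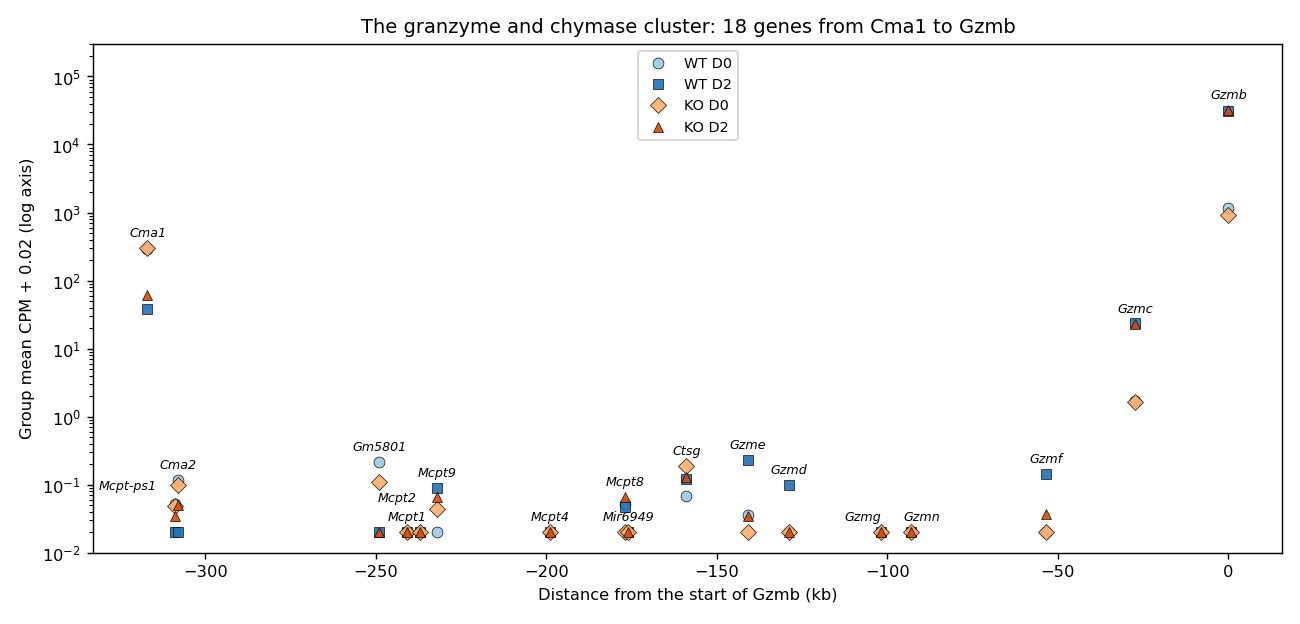
Group mean level (CPM plus 0.02, log axis) of the 18 genes from Cma1 to Gzmb against distance from the start of Gzmb (kb), with a symbol for each group. Gzmb and Gzmc at the right are higher in the D2 groups, Cma1 at the left is lower there, and all genes between them lie near the bottom of the axis.

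Prf1 encodes perforin, the pore former. It stood at 1632 and 1769 CPM in WT D0 and at 4696, 4372 and 4362 CPM in WT D2. KO D0 libraries were at 1658, 1912 and 1863 CPM, and KO D2 libraries at 6051, 4906 and 5029 CPM. The days were apart in both genotypes. The rise was 2.63-fold in WT (log2 fold change 1.40, SE 0.13, edgeR adjusted p = 1.8e-06) and 2.94-fold in KO (1.56, SE 0.11, adjusted p = 1.7e-07). Prf1 and Gzmb transcripts thus rose together but by unlike amounts. Per length, Prf1 and Gzmb were close at D0, at 1887 ± 14.8 and 2191 ± 90.4 (SD, n = 2) in WT. At D2 in WT they stood at 3359 ± 140 and 40386 ± 3977 (n = 3).

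Srgn, whose product packs granzymes and perforin in the granule core, rose with them. It stood at 261 and 214 CPM in WT D0 and at 674, 767 and 614 CPM in WT D2. KO D0 libraries were at 368, 246 and 188 CPM, and KO D2 libraries at 878, 1038 and 742 CPM. The KO D0 libraries spread widely, yet all lay below every D2 library. The rise was 2.89-fold in WT (log2 fold change 1.53, SE 0.25, edgeR adjusted p = 0.00019) and 3.32-fold in KO (1.73, SE 0.22, adjusted p = 1.6e-05).

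Ctsc, whose product activates the granzymes, did not pass in either genotype. It stood at 275 and 328 CPM in WT D0, 331, 267 and 276 CPM in WT D2, 282, 238 and 249 CPM in KO D0, and 341, 293 and 313 CPM in KO D2. The log2 fold change was -0.05 in WT (SE 0.14, edgeR adjusted p = 0.79) and 0.30 in KO (SE 0.12, adjusted p = 0.051). The KO value lies at the threshold. It passed with RLE scaling at 0.41 (adjusted p = 0.018), and it was -0.06 with library totals alone (adjusted p = 0.68). In WT it was lower with library totals alone (-0.48, adjusted p = 0.0068), on a scale where the median of all genes was -0.50. On no scaling tried did Ctsc follow the size of the rise in Gzmb.

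Nkg7 stood at 2920 and 3013 CPM in WT D0 and at 3627, 3285 and 4030 CPM in WT D2. KO D0 libraries were at 3308, 2909 and 3530 CPM, and KO D2 libraries at 4644, 4191 and 4272 CPM. It rose in KO (log2 fold change 0.43, SE 0.11, edgeR adjusted p = 0.005), and the WT value was 0.30 (SE 0.13, adjusted p = 0.062). The KO call ended without KO D0 replicate 2 (0.30, adjusted p = 0.054), with library totals alone (0.07, adjusted p = 0.56, against -0.13 in WT), and with a correction for GC content (0.16, adjusted p = 0.27). The last 2 settings were added after seeing the data.

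Lamp1, the lysosomal membrane gene used as a marker of degranulation, was low in counts, at 19.3 and 18.4 CPM in WT D0 and 9.41, 16.8 and 17.5 CPM in WT D2. KO D0 libraries were at 21.8, 23.2 and 19 CPM, and KO D2 libraries at 11.2, 13.5 and 10.2 CPM. All KO D2 libraries lay below all KO D0 libraries, and Lamp1 fell in KO (log2 fold change -0.88, SE 0.22, edgeR adjusted p = 0.0036). In WT the value was -0.37 (SE 0.24, adjusted p = 0.22), or -0.80 with library totals alone (adjusted p = 0.014). The richest 200 bases of the Lamp1 transcript are 82% G and C, against at most 64% in the other 9 genes, and with the GC correction the KO value was -0.28 (adjusted p = 0.17). Lamp1 also overlaps Grtp1 on the opposite strand, with which it shares 8.78% of its 31-base words.

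The order of the 10 genes by level per length shows the same shift. In WT D0 Gzma came first, then Nkg7, Gzmb, Prf1, Srgn, Ctsc, Gzmm, Lamp1, Gzmk and Gzmc, and no neighbours in that order overlapped over the 2 libraries. In KO D0 the order was alike except that Prf1 came before Gzmb, and the ranges of Gzma and Nkg7 and of Prf1 and Gzmb overlapped. At D2 Gzmb came first in both genotypes, then Gzma, Nkg7, Prf1, Srgn, Ctsc and Gzmc. The last 3 places went to Lamp1, Gzmm and Gzmk in WT and to Gzmm, Lamp1 and Gzmk in KO, with ranges that overlapped between neighbours. Gzmc thus went from the last place to the seventh.

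The second comparison asks whether granule transcripts differ between KO and WT cells at D2. By edgeR 0 of the 10 genes were called, beside 1.61% of all tested genes called higher and 14.5% called lower in KO. At an unadjusted p under 0.05 the number was 2, Prf1 and Nkg7, both higher in KO, beside 25.8% of all genes in either direction. The DESeq2 Wald test called those 2 higher (adjusted p = 0.047 for Prf1 and 0.039 for Nkg7), and 0 lower, beside 4.95% and 14.7% of the genes it gave an adjusted p. The NK marker sum was lower in all 3 KO D2 libraries than in all 3 WT D2 libraries, and its part in these values was not tested. Fold changes on the log2 scale lay above 0, the side of KO, for 8 of the 10, with a median of 0.25 against 0.01 over all genes, where 51.2% were above 0.

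Gzmb stood at 32002 ± 3643 CPM in KO D2 and 31246 ± 3137 CPM in WT D2 (SD, n = 3 each). On the log2 scale KO differed from WT by 0.03 (SE 0.12, edgeR adjusted p = 0.92), and the ranges overlapped. Gzmc was likewise close, at 23.3 ± 4.05 against 23.4 ± 2.16 CPM (-0.01, SE 0.18, adjusted p = 0.99). The 2 genes with the largest rises between the days were thus those nearest to 0 between the genotypes. Prf1 was at 5329 ± 629 CPM in KO and 4476 ± 190 in WT (0.25, SE 0.11, adjusted p = 0.17), and Nkg7 at 4369 ± 241 and 3647 ± 373 CPM (0.26, SE 0.11, adjusted p = 0.16). The libraries of the 2 genotypes were apart for Prf1 and Nkg7 alone among the 10, beside 33.8% of all tested genes.

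For the other genes the values in KO against WT were 0.24 for Gzma (SE 0.18), 0.37 for Srgn (SE 0.21), 0.12 for Ctsc (SE 0.12), 0.49 for Gzmm (SE 0.27), 0.56 for Gzmk (SE 0.37) and -0.33 for Lamp1 (SE 0.22), with edgeR adjusted p from 0.29 to 0.65. WT D2 replicate 1 sets part of the spread of Gzmk and Lamp1. It was the highest WT D2 library for Gzmk and the lowest for Lamp1, and without it Gzmk was higher in KO by 1.17 (edgeR adjusted p = 0.017) and Lamp1 lower in KO (-0.58, adjusted p = 0.03). Gzmk moved the other way, to 0.235 without WT D2 replicate 3 and 0.237 without KO D2 replicate 1, and was not called in either case. Gzmm ran from 0.22 without WT D2 replicate 1 to 0.823 without WT D2 replicate 3, with no call.

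At D2 same-numbered KO and WT libraries deviate together from their group means, as do same-numbered KO and WT libraries of different title days. With the replicate number as a block 6 of the 10 were called higher in KO and 0 lower. These were Srgn (0.36, edgeR adjusted p = 0.0026), Prf1 (0.25, adjusted p = 0.021), Nkg7 (0.26, adjusted p = 0.028), Gzma (0.23, adjusted p = 0.036), Gzmm (0.53, adjusted p = 0.039) and Gzmk (0.65, adjusted p = 0.049). In that fit 6.56% of all tested genes were called higher and 18.6% lower. Gzmb stood at 0.03 (adjusted p = 0.8) and Gzmc at -0.02 (adjusted p = 0.94) there. With the block and the GC correction together Srgn alone was called (0.26, adjusted p = 0.021), beside 11.6% of all genes higher and 12.7% lower. With the number as 1 block over both days 0 were called, beside 3.22% of all genes higher and 16.7% lower. With the replicate block within day no value exceeded 0.65 in size on the log2 scale, and the calls differ between fits.

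At D0 edgeR called 0 of the 10 genes between KO and WT, beside 0.0948% of all genes higher and 0.0583% lower. At an unadjusted p under 0.05 the number was 1, Gzmb, which was at 910 ± 76.4 CPM in KO (n = 3) and 1147 ± 103 CPM in WT (n = 2), a log2 fold change of -0.33 (SE 0.13, edgeR adjusted p = 1). DESeq2 called 0 as well, beside 0.157% of all genes higher and 0.0816% lower, and so did the fit with the replicate block, beside 0.299% and 1.17%. The libraries were apart for Gzmb, Gzmk and Gzmm, beside 16.5% of all tested genes. The median over the 10 was 0.11, against 0.02 over all genes.

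The third comparison asks whether the change from D0 to D2 differs between genotypes. By edgeR 0 of the 10 were called, 0 also passed at an unadjusted p under 0.05, and DESeq2 called 0. Over all tested genes edgeR called 0.124% with a more positive change in KO and 5.73% with a more negative one, and DESeq2 0.764% and 8.9%. Gzmb had the smallest p, with a difference of 0.37 on the log2 scale (SE 0.18, edgeR adjusted p = 0.33), followed by Ctsc at 0.35 (SE 0.18, adjusted p = 0.38) and Lamp1 at -0.51 (SE 0.32, adjusted p = 0.5). For Lamp1 and Nkg7, which passed in KO and not in WT, the difference between genotypes was thus not shown (Nkg7 0.13, SE 0.17, adjusted p = 0.8). With the replicate block within each day 3 were called with a more positive change in KO, Srgn (0.50, adjusted p = 0.0092), Gzma (0.49, adjusted p = 0.013) and Ctsc (0.42, adjusted p = 0.03), beside 4.51% of all genes, and 0 with a more negative one, beside 14.6%. None of these 3 calls held with the number as 1 block over both days (adjusted p = 0.5, 0.12 and 0.065 for Srgn, Gzma and Ctsc) or with the block within day and the GC correction (0.074, 0.81 and 0.07), where Gzma stood at -0.06. In that fit KO D0 replicate 1 has no WT partner and adds nothing, and it held the highest Srgn and Gzma levels of its group. The comparisons share libraries, since each group enters 2 of the first 4 contrasts and all enter this one.

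Around the granule genes, most of the serpins listed here as granzyme inhibitors rose between the days, and whether each inhibits a granzyme was not examined. Of 5 serpins 4 rose and 1 fell in both genotypes, beside the 27.5% of all tested genes called higher in WT and 27% in KO, and the 26% and 34.5% called lower. Serpinb9, which encodes a Gzmb inhibitor, stood at 698 ± 77.4 CPM in WT D0 (n = 2) and 4015 ± 483 in WT D2 (n = 3), and at 673 ± 98.9 in KO D0 and 4279 ± 776 in KO D2 (n = 3 each). Its log2 fold change was 2.53 in WT (edgeR adjusted p = 3.2e-07) and 2.67 in KO (adjusted p = 5e-08). Serpinb6b rose by 2.11 and 2.19, Serpina3g by 1.73 and 2.06, and Serpinb9b by 1.29 and 1.60 in WT and KO. Serpinb6a fell, with -1.36 and -1.72. These serpins have close relatives in the genome, so the split of reads between copies is uncertain. None of the 5 was called between the genotypes at D2, where Serpina3g had the smallest p (log2 fold change 0.29, edgeR adjusted p = 0.16). With the replicate block Serpina3g was called higher in KO (edgeR adjusted p = 0.0091), beside 6.56% of all tested genes.

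The genes of transport and release moved in both directions. Of 18 listed genes 3 rose and 5 fell in WT (27.5% and 26% of all tested genes), and 2 rose and 6 fell in KO (27% and 34.5%), with medians of 0.14 and 0.06. The shares that fell are near those of all genes. The genes with the smallest p that fell were Sytl1 and Sytl2, which encode synaptotagmin-like effectors of Rab27 proteins. Sytl1 changed by -3.60 in WT (SE 0.35) and -3.53 in KO (SE 0.33), and Sytl2 by -2.17 and -2.02 (SE 0.24 and 0.22). The priming factor gene Unc13d changed by -0.93 in WT (edgeR adjusted p = 0.0017) and -0.56 in KO (adjusted p = 0.018). In WT the 3 that rose were Stx11 (0.76), Dock8 (0.34) and Arl8b (0.58). The Stx11 call ended without WT D0 replicate 2 (adjusted p = 0.081), the Dock8 call without any library but KO D0 replicate 3 (0.056 to 0.21), and the Arl8b call without any library but KO D0 replicate 2 or WT D2 replicate 1 (0.061 to 0.23). In KO Sytl3 and Vamp7 rose (0.54 and 1.21), and the calls ended without KO D2 replicate 2 (0.058) and KO D0 replicate 2 (0.07). Kif5b fell in KO (-0.71, adjusted p = 0.00039), and with the GC correction its value was -0.11 (adjusted p = 0.41).

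Between the genotypes at D2, 3 of the 18 were lower in KO and 0 higher, beside 14.5% and 1.61% of all tested genes, which is near the background. They were Kif5b, a kinesin heavy chain (-1.19, SE 0.13, edgeR adjusted p = 0.00012), Stx11, a SNARE of granule fusion (-1.35, SE 0.16, adjusted p = 0.00017), and Arl8b, which links lysosomes to kinesin (-1.63, SE 0.21, adjusted p = 0.00027). Stx11 was at 50.4 ± 3.13 CPM in KO D2 and 128 ± 25.4 in WT D2, Arl8b at 25.1 ± 0.863 and 77.4 ± 19.3, and Kif5b at 108 ± 10.1 and 246 ± 40.9 (n = 3 each). In each case all KO D2 libraries lay below all WT D2 libraries. With the GC correction the values were -0.66 for Kif5b, -1.12 for Stx11 and -1.07 for Arl8b, all still called. With the replicate block 3 more were called, all higher in KO, namely Sytl3, Was and Stxbp2 (adjusted p = 0.0029, 0.032 and 0.048). In that fit 6.56% of all tested genes were called higher and 18.6% lower.

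The lysosomal genes moved in both directions. Of 19 listed genes 9 rose and 7 fell in WT (27.5% and 26% of all tested genes), and 7 rose and 8 fell in KO (27% and 34.5%), with medians of 0.34 and -0.17. M6pr, which encodes a sorting receptor for lysosomal enzymes, rose by 1.31 in WT and 1.36 in KO (SE 0.12 and 0.10). Ctss rose by 1.27 and 1.66, and Cst7, an inhibitor of cathepsins that acts on Ctsc, rose by 0.66 and 0.95. Ctsw, a cathepsin of NK and cytotoxic T cells, fell, with -1.50 and -1.13 (SE 0.14 and 0.13), as did Ctsd (-1.26 and -1.04). At D2 Ctss, Ctsw and Cst7 were higher in KO (0.45, 0.44 and 0.43), and Gnptab, which tags lysosomal enzymes for sorting, and Tfeb were lower (-0.91 and -1.34), beside 1.61% of all tested genes higher and 14.5% lower. With the GC correction only the Gnptab call held of these 5, at a smaller size (-0.43, adjusted p = 0.045). The values of the others were then 0.34 for Ctss, 0.33 for Ctsw, 0.33 for Cst7 and -0.80 for Tfeb (adjusted p from 0.061 to 0.22). With that correction and the replicate block together all 5 were called (adjusted p from 0.0022 to 0.011). The Ctss call ended without KO D2 replicate 2 or 3 or WT D2 replicate 1 (0.051 to 0.069), and the Tfeb call without KO D2 replicate 1 or 2 or WT D2 replicate 2 or 3 (0.05 to 0.085). The Ctsw call ended without any of KO D0 replicate 2, the KO D2 libraries and WT D2 replicates 1 and 2 (0.057 to 0.15). The Cst7 call ended without any of KO D0 replicate 2, KO D2 replicates 1 and 3, the WT D0 libraries and WT D2 replicates 1 and 2 (0.054 to 0.21). With the replicate block 5 were higher and 4 lower, with Ctsa, Ctsd and Hexa among the added ones. In that fit 6.56% of all tested genes were called higher and 18.6% lower.

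Of 10 transcription factors reported to act on granule genes, 5 rose and 3 fell in WT (27.5% and 26% of all tested genes), and 4 rose and 4 fell in KO (27% and 34.5%). Irf8 rose by 2.35 in WT and 1.51 in KO (SE 0.15 and 0.13), and Stat5a by 1.53 and 1.45. Zeb2 fell, with -1.60 and -1.35, as did Eomes, with -0.94 and -1.63. Between the genotypes at D2, 5 were lower in KO and 0 higher, beside 14.5% and 1.61% of all tested genes. They were Irf8 (-0.77, edgeR adjusted p = 0.00091), Tbx21 (-1.998, adjusted p = 0.0052), Stat5b (-0.69, adjusted p = 0.023), Runx3 (-0.84, adjusted p = 0.027) and Eomes (-0.59, adjusted p = 0.048). With the GC correction Irf8, Tbx21 and Stat5b remained called, and Runx3 (adjusted p = 0.42) and Eomes (adjusted p = 0.66) did not. The Stat5b call ended without KO D2 replicate 1 or 3 or WT D2 replicate 2 or 3 (0.066 to 0.12). For Runx3 and Eomes the fits with 1 library left out were not examined. With the replicate block Id2, Stat4 and Zeb2 were called higher as well, beside 6.56% of all tested genes called higher and 18.6% lower. At D2 Tbx21, the gene of T-bet, stood at 145 ± 20.6 CPM in KO and 580 ± 255 in WT. WT D2 replicate 1 was at 290 CPM, against 768 and 683 CPM in replicates 2 and 3. The Gzmb ranges of the genotypes overlapped at D2, and a link between Tbx21 and Gzmb was not tested.

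**Figure D5:**
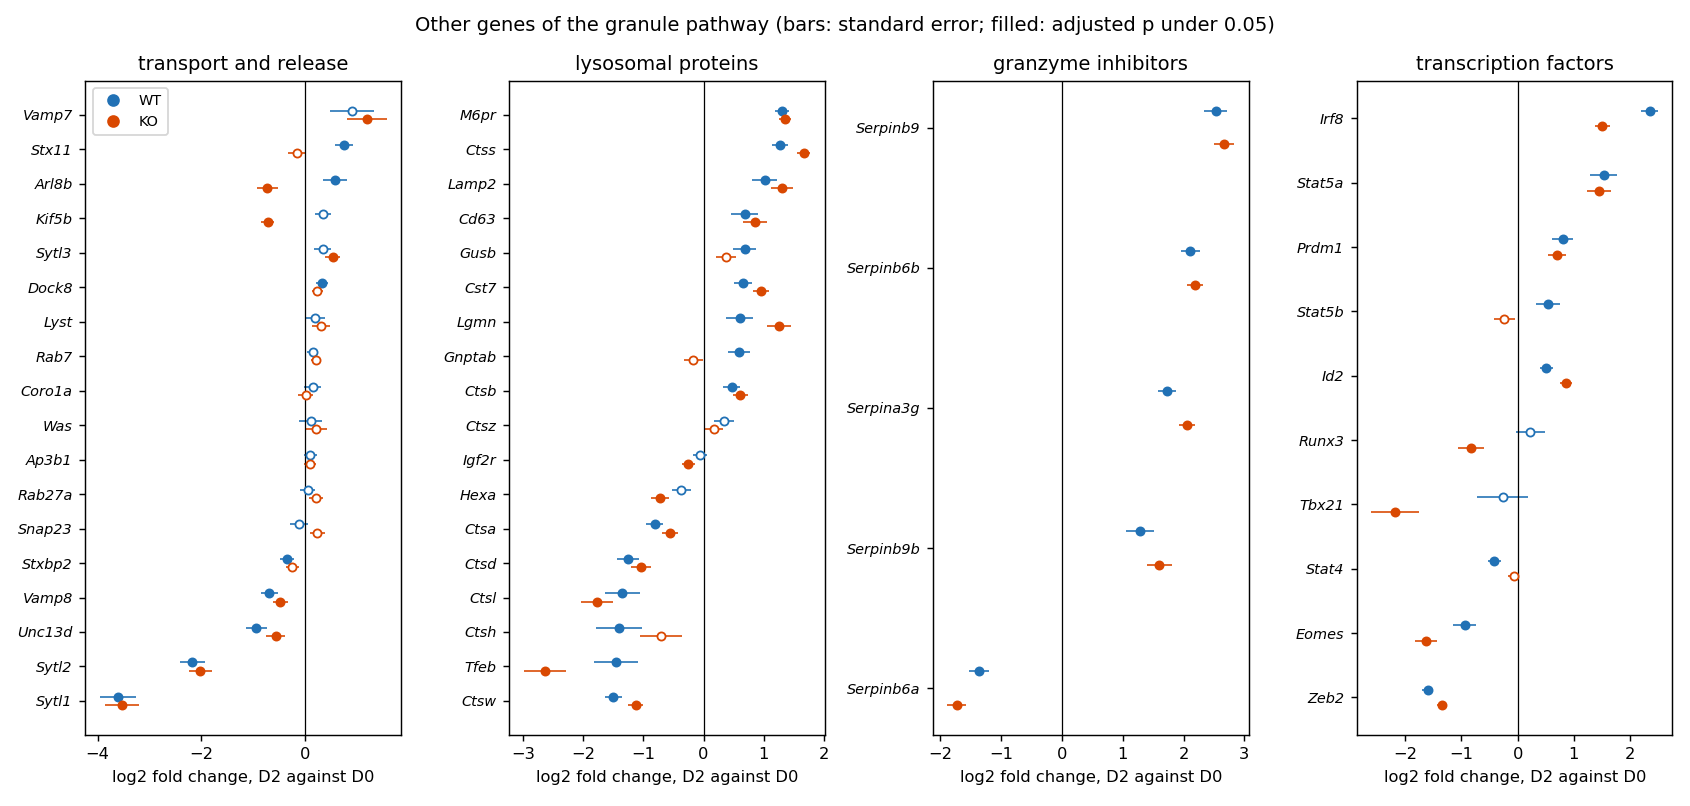
Log2 fold change of D2 against D0 in WT (blue) and KO (orange) for listed genes of transport, lysosomes (18 of 19 shown), granzyme inhibition and transcription (bars show the standard error, filled points an adjusted p under 0.05). All 5 serpins listed as granzyme inhibitors were called in both genotypes, 4 of them to the right of 0.

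Over the 11 libraries, the genes most like Gzmb in log2 CPM were Ifi211, Dcaf1, Zbtb32, Sdc3 and Ifi44 (Pearson r from 0.9979 to 0.9985, among the 9354 genes that averaged 5 CPM or more). Those most like Prf1 included Dhx58, Ifit1, Adar and Parp9 (r from 0.9953 to 0.9978). Zbtb32 ran from 0.614 to 770 CPM and Dcaf1 from 55.5 to 169 CPM, so a high r here goes with changes of very different size. These correlations mostly restate the step between the title days, which all 11 libraries share, and are given as a description.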

How the data were processed

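RNA-seq of 11 libraries in 4 groups by title was used. The authors deposited counts, whole numbers for each Entrez gene ID, and their tools, per the submitters' processing notes, include bcl2fastq 2.20.0.422, Trimmomatic 0.36, Salmon 0.13.1 and DESeq2 1.22.2 with mm10. Each tool's role is not given in the sources used here, and the counts may be rounded estimates. Per the labels' protocols, cDNA was amplified with a SMART-seq V4 kit. Symbols came from RefSeq (24387 of 24421 IDs matched), and transcript lengths and GC from GENCODE annotation of the same build.

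The test was the quasi-likelihood F test of edgeR 4.0.16 under R 4.3.3 (robust, TMM, filterByExpr, 4 group means, 7 residual degrees of freedom). Standard errors come from the F statistic. In data simulated for KO against WT at D2, over 13288 genes, 71.4% of 2-fold and 97.9% of 4-fold changes were recovered. The deviations from the group means of KO and WT libraries with the same number had correlations of 0.217, 0.198 and 0.114 in the D2 pairs and of 0.0275 and 0.41 in the D0 pairs. Same-numbered libraries of different title days had values of 0.218, 0.152 and 0.201 (KO D0 with WT D2) and of 0.134 and 0.162 (KO D2 with WT D0). With 2 WT D0 libraries, each KO D0 library's values with them mirror each other, and KO D0 replicate 1 had 0.376 with WT D0 replicate 2. At D2 the numbers were taken to pair the libraries, from the data and not from a label. Whether they mark shared chimeras or something shared over both days was not tested. No 2 libraries of the same group agreed within sampling noise. In the main fit p-values measure the spread between libraries within groups, pooled over the 4 groups, and take no account of pairing. The fit with the replicate block within day leaves 3 residual degrees of freedom.

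The genes and lists were chosen with earlier results of these data known. The text names all 10 genes, the 5 genes most like Gzmb and Prf1, Ldha, and from each list, per contrast, up to 3 called genes per direction with the smallest p, or the gene with the smallest p. A few genes that meet these rules are not reported here. Cma1, genes called by the block alone and remaining called transcription factors were named after their values were seen. Alternatives were RLE scaling, DESeq2 1.42.0, no filter, a filter of 5 mean CPM, the compared groups only, 2 replicate blocks and leaving out each library, with total-count scaling and a GC offset (loess on the richest 200 bases) added after seeing the data.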

Additional observations from a re-analysis of the deposited data

Results flagged for a closer look

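For 4 genes around the granule set the change from D0 to D2 differed between KO and WT by edgeR's test of that difference, and in all 4 it was more negative in KO, beside 5.73% of all tested genes called more negative and 0.124% more positive. The difference on the log2 scale was -1.07 for Kif5b (SE 0.20, edgeR adjusted p = 0.013), -0.84 for Irf8 (SE 0.19, adjusted p = 0.025), -1.30 for Arl8b (SE 0.31, adjusted p = 0.031) and -0.91 for Stx11 (SE 0.24, adjusted p = 0.042). Stx11 stood at 65.1 and 86.6 CPM in WT D0 and 102, 152 and 132 CPM in WT D2, against 55.6, 60.9 and 51.5 CPM in KO D0 and 48.8, 48.4 and 54 CPM in KO D2. Irf8 rose in both genotypes, from 976 ± 60.4 to 4982 ± 664 CPM in WT (n = 2 and 3) and from 1023 ± 87.6 to 2914 ± 262 CPM in KO (n = 3 each). With the GC correction none of the 4 was called, with values of -0.55 for Kif5b (adjusted p = 0.14), -0.80 for Irf8 (0.066), -0.74 for Arl8b (0.16) and -0.67 for Stx11 (0.15). With that correction and the replicate block together Kif5b (-0.49, edgeR adjusted p = 0.018), Arl8b (-0.77, 0.016) and Irf8 (-0.82, 0.00056) were called, and Stx11 was not (-0.63, 0.06). The Stx11 call also ended with RLE scaling (0.081), with no filter (0.055) and with total-count scaling (0.063), and that of Arl8b with total-count scaling (0.05). The call of Kif5b ended without 4 of the 11 libraries in turn (KO D2 replicate 1, both WT D0 libraries and WT D2 replicate 3, adjusted p from 0.054 to 0.07). The calls of Irf8 and Arl8b held without KO D0 replicate 1 or 3 or WT D2 replicate 1, and ended without any other library (0.06 to 0.11 and 0.073 to 0.14). That of Stx11 held without KO D0 replicate 1 or WT D2 replicate 1 and ended without any other (0.055 to 0.23).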

How the results depend on the processing

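The calls of Gzmb, Gzmc, Prf1, Srgn and Gzmm between the days, and that of Gzma in KO, kept their direction and their side of the threshold in both genotypes under every alternative run. Between the genotypes at D2, 0 of the 10 genes were called higher, and the count was 2 with DESeq2, 6 with the replicate block within day and 1 with that block and the GC offset together. Leaving out 1 library gave 0 to 1 higher and 0 to 1 lower, the latter without WT D2 replicate 1. In WT 1 gene fell between the days, and this became 2 with the block across days and 4 with total-count scaling, where 27.5% and 41.7% of all tested genes were called lower. Leaving out 1 library gave 1 to 2, with 2 without WT D2 replicate 1. For the difference between genotypes 0 were called, and 3 with the block within day. That block changed no call of the 10 genes at D0.

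Some values changed sign. Among them Dock8 in WT had been called higher in the main fit (0.34, edgeR adjusted p = 0.026), and none of the others was called with either sign. With total-count scaling these were Nkg7 (-0.133) and Dock8 (-0.095) in WT, Ctsc (-0.058) and Ldha (-0.213) in KO, and Gzmc between the genotypes at D2 (0.043). With the GC offset they were Gzmb (-0.073) and Lamp1 (0.115) at D2, Gzma (0.148) and Gzmc (0.111) at D0, Ldha between the days in KO (-0.058), and Gzmc (-0.229) and Nkg7 (-0.013) in the difference between genotypes. Gzmc at D2 was 0.084 with RLE scaling, 0.081 with DESeq2, 0.002 with the 5 CPM filter and 0.016 with the compared groups only, and at D0 it was 0 with that filter. With the replicate block within day, Gzmc was 0.121 and Srgn -0.136 at D0, and the differences between genotypes were -0.14 for Gzmc and 0.065 for Gzmk. With the block and the GC offset Gzmb was -0.075 and Lamp1 0.127 at D2, Gzma was 0.2, Gzmc 0.376, Srgn -0.077 and Serpinb9b 0 at D0, and the differences between genotypes were -0.059 for Gzma, -0.499 for Gzmc, 0.023 for Lamp1 and -0.061 for Nkg7. With the block across days the differences were -0.004 for Gzmc and 0.233 for Gzmk, which was 0.01 with RLE scaling and 0.007 with DESeq2.

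Leaving out 1 library at a time moved Gzmb from -0.068 to 0.1 and Gzmc from -0.115 to 0.11 at D2. At D0 it moved Gzma from -0.26 to 0.089, Gzmc from -0.186 to 0.111, Srgn from -0.146 to 0.355 and Serpinb9b from -0.255 to 0.077. It moved Ctsc between the days in WT from -0.236 to 0.034, and the differences between genotypes from -0.133 to 0.165 for Gzmc, from -0.388 to 0.548 for Gzmk and from -0.01 to 0.592 for Gzmm. Why these values changed sign was not tested.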
